A study of Mus musculus with 3 samples.

Results

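Chromatin accessibility at Id1, Id2, Id3 and Id4 was examined in mesenchymal progenitors (MPs) of the developing mouse forelimb. For each gene, every peak that overlapped the gene or the 20 kb on either side (its window, mm10) was taken from 3 peak lists, and overlapping peaks of the lists were merged into regions. The 4 windows held 36 of the 266531 regions in the series, and 13 of the 36 carried a peak in all 3 lists, against 84660 of all regions. Only these shared regions were compared between stages. The value of a library is the sum over its own peaks in a region, so the bases counted could differ between libraries. A CPM ratio between stages therefore holds differences in called width as well as in accessibility. The nuclei came from tdTomato+ cells sorted from C57BL/6J embryos of the genotype Hic1CreERT2/CreERT2;Rosa26LSLtdTomato/tdTomato, whose dams had received 7.5 mg of tamoxifen in 300 uL of sunflower oil by gavage at embryonic day (E) 10. The reporter therefore marks cells in which the Hic1 promoter drove CreERT2 around that time, together with their descendants, and both Hic1 alleles carry CreERT2 in every library. One library each was made at E12.5 and E14.5 from the embryonic forelimb, and 1 at E16.5 from a forelimb segment spanning the distal stylopod, the elbow joint and the proximal zeugopod. Limbs of several embryos were pooled, and sorting had removed cells stained for Ter119, F4/80, CD11b, CD31, CD117 or CD45.

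Id proteins are helix-loop-helix proteins that lack the basic stretch needed to touch DNA. They pair with the E proteins encoded by Tcf3, Tcf4 and Tcf12 and keep them from forming DNA-binding dimers with tissue-specific bHLH factors. Bone morphogenetic proteins (BMPs) act through type I and type II receptors and the transducers SMAD1, SMAD5 and SMAD9 with SMAD4, and Id1, Id2 and Id3 are among the best known genes switched on by this cascade. In the limb, BMP signalling takes part in cartilage formation, joint patterning and the death of interdigital cells.

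The 3 libraries held 8294, 20023 and 14048 nuclei, with 87048167, 204289151 and 413425059 counts in peaks and medians of 6004, 8575 and 26694 counts per nucleus, in the order of the stages, which is kept wherever 3 values follow each other. A count is a transposase cut site. Values are given per 1000000 counts in autosomal shared regions (CPM), and a ratio is called when it passes 1.5-fold in either direction. Since each stage is a single library, the spread between replicates is unknown and stages were not tested, so intervals are 95% intervals for counting error only. Stage cannot be told apart from library, from the enzymes of dissociation, which differed at E12.5, or from the limb segment, which differed at E16.5. Between 151 and 401 barcode sequences occurred in both of a pair of libraries. The 4 limb mesenchyme loci checked (Prrx1, Twist1, Pdgfra and Hic1) had a median promoter value of 102.6, 113.2 and 90.6 CPM, whereas the median of all genes was 31.9, 40.0 and 32.7 CPM. Krt5, Krt14, Ptprc, Spi1, Gata1, Pecam1, Tie1, Myf5 and Myog, which mark cells of other types, had no promoter region in all 3 lists.

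The start sites of Id1, Id2 and Id3 lay inside some of the widest peaks of the E12.5 and E16.5 lists. The peak over Id1 (chromosome 2, 152736251 to 152737410, plus strand) spanned 9569 bp in the first library and 9396 bp in the last, and in the middle one the region held 2 peaks of 7184 bp together. Over Id2 (chromosome 12, 25093799 to 25097140, minus strand) the called width was 9815 bp, 8828 bp in 2 peaks and 9869 bp. Over Id3 (chromosome 4, 136143497 to 136145755, plus strand) it was 12075 bp, 9210 bp in 4 peaks and 12205 bp. These regions cover the whole of the gene and several kb of flank. Peaks of at least 9 kb made up 0.0368%, 0.00586% and 0.0749% of the 3 lists, and only 18 of 190443 peaks were wider than that of Id3 at E12.5. Id4 (chromosome 13, 48261228 to 48266026, plus strand) had a narrower promoter region of 3333, 2945 and 3209 bp, which it shares with the annotated starts of A330033J07Rik and Gm49291 and which was still wider than the median called promoter of 2055, 1726 and 2298 bp. Throughout, the promoter region of a gene is the shared region that overlaps 1000 bp upstream to 100 bp downstream of a start site of a protein-coding gene, and regions outside promoters are those that overlap no such interval.

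**Figure D1:**
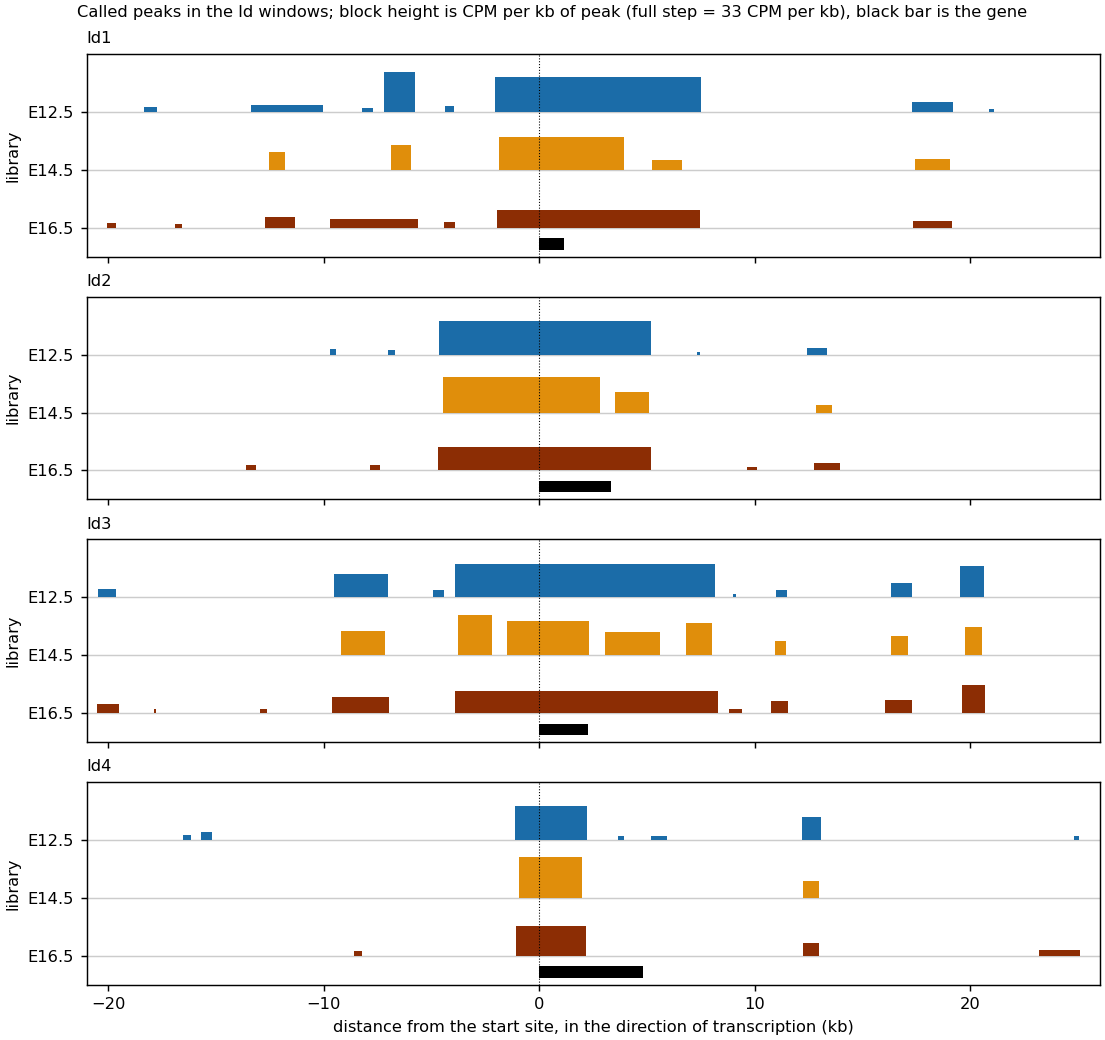
Called peaks in the windows of Id1, Id2, Id3 and Id4 by distance from the start site (x axis, kb, in the direction of transcription), with 1 track per library. Block height is CPM per kb of the peak on the same linear scale in all tracks, and the black bar is the gene. The broad block at each start site is present in all libraries. The 4 blocks at Id3 in E14.5 lie, with gaps between them, within the span that E12.5 and E16.5 have as a single peak.

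The RefSeq promoter sequences (250 bases before to 50 bases after the start, GRCm38.p6) of Id2, Id3 and Id4, which lie in these regions, are shown for the letters that BMP-responsive SMADs are known to bind. The start in these entries is not the gene end from which distances are counted here. The Id2 and Id3 sequences lie wholly inside the genes as given above, and that of Id4 wholly before it. A table entry was matched for 3 of the 4 genes. Capitals mark GGCGCC, a site of the BMP SMADs, and GTCT or its complement AGAC, the short SMAD-binding element.
Id2, chr12:25096043-25096342, minus strand: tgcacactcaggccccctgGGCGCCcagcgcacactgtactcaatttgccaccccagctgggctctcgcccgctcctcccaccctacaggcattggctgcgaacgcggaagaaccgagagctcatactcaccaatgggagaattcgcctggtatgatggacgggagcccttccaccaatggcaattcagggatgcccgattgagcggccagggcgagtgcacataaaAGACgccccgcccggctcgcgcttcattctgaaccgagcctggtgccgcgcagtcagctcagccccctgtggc
Id3, chr4:136143572-136143871, plus strand: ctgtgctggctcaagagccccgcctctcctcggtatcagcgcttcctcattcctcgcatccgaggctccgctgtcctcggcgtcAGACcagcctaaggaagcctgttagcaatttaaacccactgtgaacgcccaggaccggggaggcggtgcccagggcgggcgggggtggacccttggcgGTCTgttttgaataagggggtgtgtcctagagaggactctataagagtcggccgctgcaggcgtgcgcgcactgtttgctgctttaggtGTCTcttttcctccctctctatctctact
Id4, chr13:48260866-48261165, plus strand: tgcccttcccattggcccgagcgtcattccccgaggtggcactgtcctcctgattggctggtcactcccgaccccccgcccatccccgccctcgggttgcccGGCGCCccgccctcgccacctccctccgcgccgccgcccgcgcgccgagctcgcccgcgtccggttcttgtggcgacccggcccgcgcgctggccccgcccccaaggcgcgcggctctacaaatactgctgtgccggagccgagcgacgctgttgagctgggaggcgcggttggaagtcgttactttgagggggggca

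GGCGCC occurred once in the Id2 and once in the Id4 promoter, and was not among these 300 letters at Id3. Of 16517 protein-coding promoters of the same length, 15.9% held these letters. The GTCT element was counted on both strands and was found 1 time at Id2, 3 times at Id3 and 0 times at Id4. It was present in 86.9% of all promoters, with a median of 2 matches, so its presence sets no promoter apart. The letters of a GC box, CCGCCC on either strand, were matched 1, 2 and 5 times at Id2, Id3 and Id4, and 48.0% of promoters held them. CCAAT was matched 3, 0 and 2 times (38.9% of promoters), CANNTG, the E-box letters bound by bHLH dimers, 1, 0 and 0 times (68.5%), and TGACGTCA was not matched in any of the 3 (2.41%). GC content was 63.3%, 60% and 73.3%, and 70.8%, 59.96% and 93.1% of promoters had a lower value.

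In CPM, accessibility at the Id promoter regions was highest at E12.5 for Id1, Id2 and Id3, and lowest at E16.5 for all 4 genes. The Id1 promoter region had 194.8 CPM (190.3 to 199.3) in the first library, 118.5 CPM (116.3 to 120.6) in the next and 98.3 CPM (96.8 to 99.8) in the last. At Id2 the values were 191.6 CPM (187.2 to 196.1), 168.5 CPM (165.9 to 171.1) and 130.9 CPM (129.2 to 132.7). At Id3 they were 229.2 CPM (224.3 to 234.1), 169.7 CPM (167.2 to 172.3) and 156.7 CPM (154.8 to 158.6). For these 3 genes the counting intervals of the 3 libraries did not overlap. Id4 had its highest value in the middle library, an order that turned when libraries were scaled by the median gene: 65.4 CPM (62.8 to 68.1), 69.7 CPM (68.1 to 71.4) and 54.1 CPM (53.0 to 55.2). At E12.5 the Id1, Id2 and Id3 regions were above 99.9%, 99.9% and 99.96% of the 14442 promoter regions of autosomal protein-coding genes, and Id1 was above 98.2% at E16.5. Id4 was above 90.1%, 86.6% and 83.7%. These levels are sums over regions of unequal width. Per kb of called width, each value is a mean over the start site and whatever flank was called with it. In the Id1 region at E14.5, for instance, the 2 peaks had 19.1 and 5.65 CPM per kb. Regions with unequal flank are thus only loosely comparable between genes. On this scale the 4 regions were close to each other at E12.5, at 20.4 (Id1), 19.5 (Id2), 19.0 (Id3) and 19.6 CPM per kb (Id4). At E16.5 they spread to 10.5 (Id1), 13.3 (Id2), 12.8 (Id3) and 16.9 CPM per kb (Id4). Id1 was lowest and Id4, with the narrowest region, highest. Id2 and Id3 remained neighbours at every stage, with 19.1 and 18.4 CPM per kb at E14.5.

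**Figure D2:**
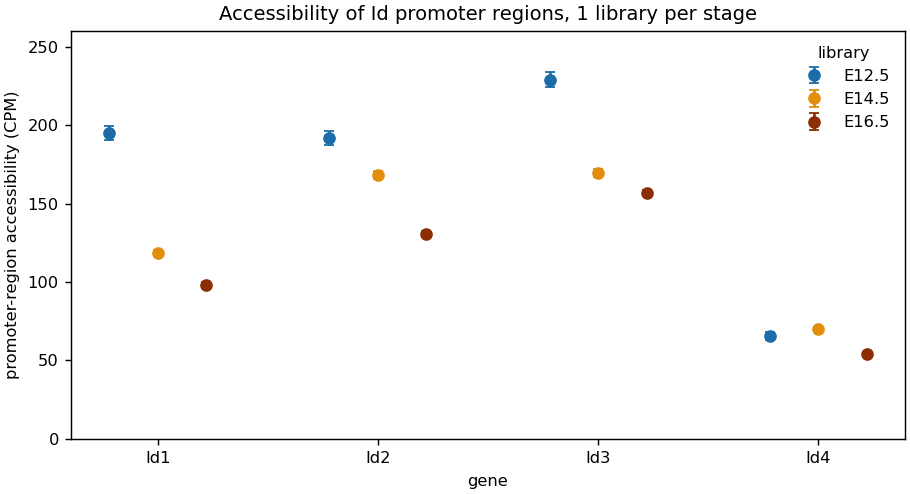
Accessibility of the promoter region (y axis, CPM, from 0) of each Id gene (x axis) in the single library of each stage, with 95% intervals for counting error. Id1 has 194.8, 118.5 and 98.3 CPM, and Id4 is the only gene whose E14.5 value is above its E12.5 value on this scale (the order turns when libraries are scaled by the median gene).

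From E12.5 to E14.5 the Id1 promoter region was 1.64-fold lower, a log2 ratio of -0.72 (-0.76 to -0.67), and in CPM it was the only member past 1.5-fold, where 4.54% of all promoter regions were that much lower and 10.5% that much higher. Its ratio stayed below 0 but under the threshold with scaling by total counts (-0.54), with nuclei weighted equally (-0.51) and per kb of called width (-0.30). The Id3 ratio was -0.43 (-0.47 to -0.40), the Id2 ratio -0.19 (-0.23 to -0.15) and the Id4 ratio 0.09 (0.03 to 0.16). Under the same 3 alternatives the Id2 ratio came close to 0 (-0.010, -0.0036 and -0.033), that of Id3 shrank to -0.26, -0.20 and -0.042, and that of Id4 grew to 0.27, 0.41 and 0.27. Promoter regions as a whole shifted the other way, with a median log2 ratio of 0.26 over all genes, so the members sat lower in the distribution than their own values show. That median was 0.44 with scaling by total counts and 0.50 per kb of called width, and all 4 members were below it there too. It is not given for nuclei weighted equally. In CPM, 3.45% of all promoter regions had a lower ratio than Id1, 6.34% than Id3, 11.2% than Id2 and 28.9% than Id4. Relative to the median gene the ratios were -0.98 for Id1, -0.69 for Id3, -0.45 for Id2 and -0.17 for Id4, so that Id3 passed 1.5-fold and Id4 changed sign, as both did with scaling by promoter counts (-0.67 and -0.15). Counting nuclei in place of cut sites gave a ratio of -0.24 for Id1, again short of 1.5-fold, but 0.17 for Id2 and 0.41 for Id3. That count takes a nucleus once per peak and so adds up over the 4 peaks into which the Id3 region is split at E14.5. The members differed from each other by more than counting error in all 6 pairs, most for Id1 against Id4 (a difference of -0.81 in log2 ratio, -0.89 to -0.73).

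From E14.5 to E16.5 no member passed 1.5-fold in CPM, where 8.88% of promoter regions were lower and 3.62% higher by that much. Each of the 4 passed it, to the lower side, under some alternative. Per kb of called width this was Id1 (-0.66), with scaling by total counts it was Id2 and Id4 (-0.62 each), and with nuclei counted in place of cut sites it was Id2 (-0.73) and Id3 (-0.995). The median of all promoter regions under these settings was -0.67, -0.54 and -0.28. The Id1 call per kb was thus at the median gene, and the Id2 and Id4 calls with total counts were near it. The log2 ratios were -0.27 (-0.30 to -0.24) for Id1, -0.36 (-0.39 to -0.33) for Id2, -0.11 (-0.14 to -0.09) for Id3 and -0.37 (-0.41 to -0.32) for Id4. All 4 were below 0, as was the median of all genes at -0.28. Of all promoter regions, 51.9% had a lower ratio than Id1, 34.8% than Id2, 34.5% than Id4 and 74.9% than Id3. Relative to the median gene, Id3 came to 0.16 and Id1 to 0.01, both above 0, and Id2 and Id4 to -0.08 and -0.09. The Id2 and Id4 ratios could not be told apart (difference 0.00, -0.05 to 0.06).

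Over the whole span, E16.5 against E12.5, the all-gene median was -0.002 and no such shift applied. In CPM the only member past 1.5-fold was again Id1, where 8.11% of promoter regions were lower and 4.86% higher by that much, and 2.87% of promoter regions had a lower ratio. Id2 (1.46-fold lower, -0.59 to -0.51 on the log2 scale) and Id3 (1.46-fold lower, -0.58 to -0.51) were just under the threshold and differed from each other by -0.00 (-0.05 to 0.05). Scaling by total counts took both past it (-0.63 each), and counting nuclei took Id3 past it (-0.59), whereas Id1 passed it under all 8 alternatives. Id4 had the smallest difference at -0.27 (-0.34 to -0.21), and 21.8% of genes had a lower ratio. The gap between Id1 and Id2 was -0.44 (-0.49 to -0.38) and that between Id1 and Id4 was -0.71 (-0.79 to -0.64). All 4 ratios were below 0 under each of the alternatives tried.

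**Figure D3:**
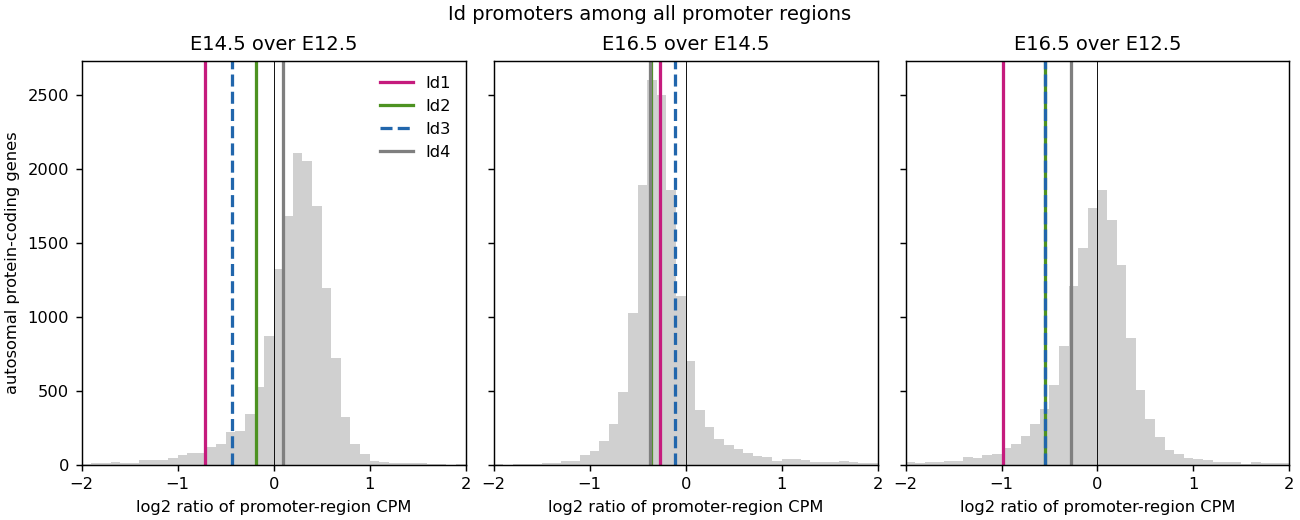
Number of autosomal protein-coding genes (y axis) by log2 ratio of promoter-region CPM (x axis) for each pair of libraries, with the 4 Id genes as vertical lines. Id1 sits at -0.72, -0.27 and -0.99, and in the middle panel the 4 lines lie between -0.37 and -0.11.

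Summed over all shared regions of a window, the ratios kept close to those of the promoter regions, which hold most of the counts. The Id1 window had 254.0, 149.7 and 134.0 CPM, the Id2 window 195.2, 171.7 and 135.8 CPM, the Id3 window 293.3, 223.3 and 213.7 CPM and the Id4 window 77.4, 76.8 and 59.6 CPM. In CPM, Id1 was the only window past 1.5-fold, with -0.76 from E12.5 to E14.5, where 6.39% of all windows were lower by that much, and -0.92 over the whole span, where 6.87% were. Per kb of called width, which was 16747, 10455 and 16629 bp, the Id1 window ratio of the first step was -0.08 and that of the second -0.83, so the first call was lost and the second gained, and that of the whole span was -0.91. Per kb the median of all windows was 0.50, -0.69 and -0.20 for the same comparisons. The Id1 window thus stayed below the median window in both steps, and further below it in the first. Counting nuclei also lost the first call (-0.43), scaling by promoter counts took the Id3 window past 1.5-fold in the first step (-0.63), and scaling by total counts took the Id2 window past 1.5-fold over the whole span (-0.60). The all-window medians in these cases were 0.11, -0.12 and -0.086. From E14.5 to E16.5 none passed in CPM (3.14% lower, 5.34% higher). In that step scaling by total counts took the Id2 (-0.60) and Id4 (-0.62) windows past 1.5-fold, and counting nuclei took those of Id2 (-0.67) and Id3 (-0.59) past it. The all-window medians of that step were -0.39 with total counts and -0.12 with nuclei counted. Where the regions around the promoters are concerned, however, the genes differed in number and in direction.

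Of the 13 shared regions, 4 are the promoter regions of the Id genes and 9 lie elsewhere in the windows. From E12.5 to E14.5, 5 of the 13 were at least 1.5-fold lower and 1 higher, where 27.5% and 16.8% of autosomal shared regions of at least the same level were. From E14.5 to E16.5 none was past the threshold (12.8% lower, 25.7% higher), and over the whole span 4 were lower and 1 higher (23.2% and 23.8%). As a count in CPM the member regions were thus near the background, and the description that follows is of single regions. The calls depended on called width. Per kb, none of the 13 was 1.5-fold lower in the first step, and Id1 region 4 (1.31) and Id3 region 9 (0.89) were higher. In the second step, Id1 regions 4, 5, 7 and 8 were lower per kb (-0.77, -1.57, -0.66 and -0.59). The share of all regions past 1.5-fold per kb is not given. Per kb, the medians of all promoter regions and all windows were both 0.50 in the first step, and -0.67 and -0.69 in the second. Id1 regions 4, 7 and 8 were near the latter, so nothing particular to Id1 is read from their calls.

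Upstream of Id1 lay a pair of intergenic regions. The farther one (region 4, nearest edge 10.0 kb upstream) had 14.2, 7.66 and 8.40 CPM, and the nearer one (region 5, 5.65 kb upstream) had 34.2, 13.3 and 19.7 CPM. Both were highest at E12.5 and had their lowest value at E14.5, though the intervals of region 4 overlapped between E14.5 and E16.5, whereas the Id1 promoter region was lowest at E16.5. For region 5 the first step was -1.37 (-1.48 to -1.25) on the log2 scale and the second 0.57 (0.48 to 0.66). Among 42976 autosomal shared regions outside promoters with a mean of at least 3.87 CPM, the level of the lowest member region, 11.2% had a lower ratio in the first step. Ranks and shares of accessibility ratios outside promoters given below are against sets of about this size, not against all shared regions outside promoters. The called width of region 5 was 1936, 921 and 4044 bp, so that per kb the first difference shrank to -0.29 and the second became -1.57. In region 4 the called width was 3347, 725 and 1359 bp, and per kb its first ratio turned to 1.31. The remaining shared region of the Id1 window, 17.3 kb downstream, is the promoter region of Cox4i2, which encodes a subunit of cytochrome c oxidase. It had 10.8, 10.3 and 7.67 CPM, with intervals that overlapped between E12.5 and E14.5, and did not share the first difference of Id1 (-0.07, -0.24 to 0.10).

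Id2 had a single shared region outside its promoter, 12.4 kb downstream of the start and intergenic. It was weak, at 3.57, 3.25 and 4.84 CPM, and its intervals overlapped between E12.5 and E14.5. The ratio over the whole span was 0.44 (0.18 to 0.71), opposite in sign to the Id2 promoter region. Its called width was 938, 723 and 1174 bp, and per kb the first step was 0.24, the second -0.13 and the whole span 0.12. The other 6 regions of the Id2 window were each called in 1 list only, 3 at E12.5 and 3 at E16.5, at 0.23 to 1.65 CPM.

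Downstream of Id3 lay 3 shared intergenic regions with different courses. Region 9 (10.8 kb downstream) had 2.27 CPM (1.83 to 2.79), 3.97 CPM (3.60 to 4.36) and 5.37 CPM (5.03 to 5.72). It was the only member region past 1.5-fold higher, with a log2 ratio of 0.81 (0.48 to 1.15) in the first step and 1.24 (0.93 to 1.57) over the whole span, and 83.1% of shared regions outside promoters had a lower ratio. Its called width was 533, 501 and 785 bp, and per kb the first step was 0.89, the second -0.21 and the whole span 0.68. Region 10 (16.03 kb) had 7.92, 8.68 and 9.23 CPM and stayed within 1.5-fold. Region 11 (19.5 kb) had 19.97, 12.3 and 17.3 CPM, with ratios of -0.70 (-0.83 to -0.57) and 0.49 (0.40 to 0.59). Its called width was 1100, 764 and 1068 bp, and per kb these ratios came to -0.17 and 0.0094, so that the low E14.5 value went with a narrower call. Upstream, 6.98 kb from the start, region 5 overlaps the annotated start of Gm26001 and had 34.0, 28.6 and 25.03 CPM. Its ratios were -0.25 and -0.19, and per kb of called width (2528, 2073 and 2646 bp) they came to 0.038 and -0.55.

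Id4 had 1 shared region beside its promoter, region 7 (12.2 kb downstream), which overlaps the annotated start of the non-coding RNA gene A330048O09Rik and so counts among the regions outside promoters of protein-coding genes. It had 12.01 CPM (10.9 to 13.2), 7.07 CPM (6.57 to 7.60) and 5.51 CPM (5.16 to 5.87), lower at each stage than at the one before. Its ratio over the whole span was -1.13 (-1.29 to -0.96), the lowest of the 13 regions in CPM, and 15.2% of shared regions outside promoters had a lower one. Per kb of called width (903, 726 and 760 bp) it was -0.88. Another region 23.2 kb downstream of the Id4 start was called at E12.5, with 0.65 CPM in 254 bp, and at E16.5, with 6.30 CPM in 1884 bp, and was not called at E14.5. Absence from a list does not show that a region was closed.

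The central 200 bases of Id3 region 9 and Id4 region 7 are shown from the GRCm38.p6 plus strand because these had the highest and the lowest whole-span ratio of the 13 regions in CPM, with opposite signs per kb as well. All of these bases lie inside the peaks of all 3 libraries. Capitals mark CANNTG.
Id3 region 9, chr4:136154556-136154755: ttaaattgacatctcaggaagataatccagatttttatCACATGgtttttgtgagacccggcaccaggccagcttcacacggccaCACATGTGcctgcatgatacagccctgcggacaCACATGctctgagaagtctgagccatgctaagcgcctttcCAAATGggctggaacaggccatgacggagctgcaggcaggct
Id4 region 7, chr13:48273754-48273953: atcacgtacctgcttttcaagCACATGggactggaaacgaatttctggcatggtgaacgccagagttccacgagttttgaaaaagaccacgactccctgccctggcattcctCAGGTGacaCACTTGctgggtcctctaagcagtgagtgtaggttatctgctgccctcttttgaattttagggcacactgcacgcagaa

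Id3 region 9 held 5 matches to CANNTG, of which a pair overlap in one stretch, and Id4 region 7 held 3. Of 68771 windows of the same length at the middle of shared regions outside promoters, 70.4% held at least 1 match, 13.1% at least 3 and 1.0% at least 5. Neither window held GGCGCC, which was in 2.21% of all such windows, and GC content was 52% and 50%, against a median of 47%. A match is a description of letters and not evidence that a factor was bound.

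Of the 36 regions, 23 were missing from at least 1 list. There were 10 found at E12.5 only and 9 at E16.5 only, none at E14.5 only, and 4 found at E12.5 and E16.5 but not E14.5. Of all regions in the series, 19.5% were found at E12.5 only, 27.5% at E16.5 only, 0.254% at E14.5 only and 17.1% at E12.5 and E16.5 but not E14.5. Nothing is read from the members' counts beside these shares. The remaining patterns, E14.5 with E12.5 only (0.997%) or with E16.5 only (2.82%), had no member. The lists held 190443, 102459 and 213613 peaks, and 28, 18 and 26 peaks in the 4 windows, so the shortest list was also the shortest here. The Id4 window had the most regions found at E12.5 only, 4 of its 8, and the strongest of these was an intronic region of A330033J07Rik 15.2 kb upstream of Id4 with 2.35 CPM.

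A nucleus yields few fragments at any 1 locus, and libraries differed in depth. Before thinning, 38.2%, 38.5% and 58.2% of nuclei had a cut in the Id1 promoter region. With each nucleus thinned to 1309 fragment equivalents (cut sites divided by 2 and rounded up), and 2073, 502 and 214 shallower nuclei left out, these shares became 17.0% (16.1 to 18.0), 13.0% (12.6 to 13.5) and 9.61% (9.12 to 10.1). The Id1 share was thus lower at each later stage. For Id3 the thinned shares were 19.8% (18.8 to 20.8), 17.7% (17.1 to 18.2) and 15.0% (14.4 to 15.6), in the same order. For Id2 they were 16.8% (15.9 to 17.8), 17.5% (16.9 to 18.0) and 12.7% (12.1 to 13.2), and since the E14.5 share exceeded that of E12.5 while the CPM did not, no order is read between them. Id4 had 6.06% (5.48 to 6.68), 7.65% (7.28 to 8.04) and 5.43% (5.06 to 5.82), highest at E14.5 as in CPM. At promoters of Cdh5, Kdr and Cd68, genes of endothelial and blood cells that the sort excludes, the thinned shares ranged from 0.50% to 4.55%, 0.23% to 4.44% and 0.62% to 4.81%. The lowest Id share, that of Id4 at E16.5, was close to this range and the others were above it. Called width was not matched between these genes and the Id regions. The range is also no baseline for closed loci, since the Cd68 promoter had 41.9, 38.6 and 48.8 CPM. Nuclei with a cut at none of the 4 Id promoters made up 52.4%, 55.1% and 64.4% of the thinned nuclei. The product of the 4 single shares gives 51.8%, 54.6% and 63.7%, slightly less at each stage. With so few fragments per locus, this comparison cannot show whether cuts at the 4 genes fell in nuclei independently of each other.

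To see whether the Id regions differed between nuclei of different lineage leaning, each library was divided by the share of a nucleus's fragments that fell at loci of a lineage, and the top 10% of nuclei (the gate) were set beside the nuclei below the median score. A gate is a range of a score and not a cell type. The lineage lists were chondrogenic (9 genes such as Sox9, Col2a1 and Acan), tenogenic (7, such as Scx and Tnmd), fibrogenic (8, such as Dpt and Postn) and dermal fibrogenic (10, such as Irx1, En1 and Lef1), and the Id windows were left out of the score. Gates held 623 to 625, 1953 and 1384 nuclei. Gated nuclei were shallower than those below the median in all 12 cases, for instance with medians of 18698 and 25621 counts for the chondrogenic gate at E16.5. Between 300 and 1187 nuclei lay within 10% of the score at which a gate began, so many nuclei were near the boundary.

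At E12.5 the intervals of the Id promoter regions included 0 for all 4 genes in the chondrogenic, tenogenic and dermal fibrogenic gates, but with the gate narrowed to the top 5% those of Id3 in the chondrogenic gate (-0.25, -0.49 to -0.03) and Id2 in the tenogenic gate (-0.23, -0.47 to -0.0087) did not. In the fibrogenic gate the Id3 ratio was -0.17 (-0.33 to -0.02) and the others included 0, but scaled by promoter counts Id3 included 0 (-0.090, -0.24 to 0.062) and Id1 did not (0.19, 0.033 to 0.35). In the top 5% Id2 was also below 0 there (-0.34, -0.62 to -0.076). At E14.5 all 4 promoter regions were higher in the chondrogenic gate, by 0.13 (Id1), 0.16 (Id2), 0.24 (Id3) and 0.35 (Id4) on the log2 scale. At E16.5 the values were 0.31, 0.41, 0.16 and 0.41, with 119.8 against 96.4 CPM for Id1 and 70.2 against 52.9 CPM for Id4. None of the 4 passed 1.5-fold, where 1.3% of promoter regions at E14.5 and 4.67% at E16.5 were higher by that much, and the members' ratios were above those of 76.3% to 96.1% of promoter regions in the E14.5 library and 55.2% to 89.0% in the E16.5 library. Gated nuclei had 49.5% of their counts in promoter regions and those below the median 44.9% at E16.5, and the median promoter region had a ratio of 0.14. Scaled by promoter counts, the E16.5 ratios of the chondrogenic gate were 0.17, 0.27, 0.025 and 0.27, and that of Id3 then included 0 in its interval, as did that of Id1 at E14.5 (0.087). In the top 5%, Id4 reached 0.63 at E16.5 and so passed 1.5-fold. In the fibrogenic gate at E14.5, Id2 was at -0.11 (-0.21 to -0.02), Id3 at -0.13 (-0.23 to -0.04) and Id4 at -0.19 (-0.34 to -0.04), and the interval of Id1 included 0, as did all 4 when scaled by promoter counts or in the top 5%. In that gate at E16.5 the ratios were below 0 for all 4 genes, at -0.27, -0.20, -0.09 and -0.20, and the median of all promoter regions was -0.08, next to that of Id3. Scaled by promoter counts, Id3 there included 0 (-0.013, -0.087 to 0.060), and in the top 5% Id4 did (-0.16, -0.36 to 0.027). In the tenogenic gate at E14.5, Id3 was at 0.10 (0.02 to 0.19) and the other intervals included 0. At E16.5, Id3 was at 0.22 (0.15 to 0.28) and Id2 at 0.10 (0.03 to 0.18), Id4 was at -0.15 (-0.27 to -0.03) and the interval of Id1 included 0. In the top 5% those of Id2 and Id4 included 0 as well. The dermal fibrogenic gate also had promoter regions above those of the nuclei below the median. At E14.5 these were Id1 at 0.19 (0.09 to 0.28), Id4 at 0.16 (0.03 to 0.29) and Id3 at 0.12 (0.04 to 0.21), and the interval of Id2 included 0. At E16.5 they were Id2 at 0.29 (0.22 to 0.36), Id4 at 0.15 (0.04 to 0.26) and Id1 at 0.11 (0.03 to 0.19), and that of Id3 included 0. The median of all promoter regions in this gate was 0.058 at E14.5 and 0.028 at E16.5. The members' ratios were above those of 54.0% (Id2) to 82.2% (Id1) of promoter regions at E14.5, and 33.9% (Id3) to 89.5% (Id2) at E16.5. Scaled by promoter counts, the intervals of Id3 and Id4 at E14.5 and of Id1 and Id4 at E16.5 included 0 as well, and Id3 at E16.5 was below 0 (-0.093, -0.16 to -0.027). In the top 5% the interval of Id4 at E14.5 included 0.

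Some regions away from the promoters passed 1.5-fold in a gate. Id3 region 9 was higher in nuclei gated on dermal fibrogenic loci, with 8.77 against 2.60 CPM at E14.5 and 10.1 against 4.27 CPM at E16.5. These are log2 ratios of 1.75 (1.33 to 2.17) and 1.25 (0.95 to 1.53), where 10.1% and 17% of shared regions outside promoters were at least 1.5-fold higher, and 99.0% and 91.9% of such regions had a lower ratio. The same region was lower in the chondrogenic gate at E16.5, at 2.31 against 5.72 CPM (-1.31, -1.88 to -0.78), and in the tenogenic gate, at 2.50 against 6.83 CPM (-1.45, -2.01 to -0.93), where 39.3% and 21.1% of regions were at least 1.5-fold lower. In the fibrogenic gate at E16.5 it had 3.46 against 6.51 CPM (-0.91, -1.40 to -0.46), and 15.9% of regions were that much lower. At E12.5 its ratio in the dermal fibrogenic gate was 0.59 with an interval from -0.57 to 1.61, on 10 and 42 fragment equivalents, so that a difference was not detectable at this depth. Id3 region 10 was also higher in the dermal fibrogenic gate, by 0.65 at E14.5 and 0.60 at E16.5, and it was lower in the tenogenic gate at E14.5, with 6.00 against 9.63 CPM (-0.68, -1.14 to -0.25), where 9.33% of regions were at least 1.5-fold lower.

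Id1 region 5 was likewise higher in the dermal fibrogenic gate and lower in the tenogenic one. In the dermal fibrogenic gate it had 19.3 against 11.9 CPM at E14.5 (0.71, 0.44 to 0.97) and 29.1 against 17.9 CPM at E16.5 (0.70, 0.54 to 0.87). In the tenogenic gate at E16.5 it had 12.5 against 23.0 CPM (-0.88, -1.12 to -0.64). Its chondrogenic ratio at E16.5 was -0.53 (-0.76 to -0.31), under 1.5-fold, and 41.3% of regions had a lower one. Id1 region 4, its neighbour, was lower in the chondrogenic gate at E16.5, with 4.94 against 8.54 CPM (-0.79, -1.19 to -0.41), a ratio below which 31.3% of regions lay. The Id1 promoter region was higher in that gate, so the promoter and both upstream regions of Id1 had opposite signs there, as did the medians of all promoter regions (0.14) and of all shared regions outside promoters (-0.32).

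Id4 region 7 was higher in the chondrogenic gate at E14.5 and E16.5, but not at E12.5 (-0.18, -0.84 to 0.43). In nuclei gated on chondrogenic loci it had 9.20 against 6.03 CPM at E14.5 (0.61, 0.23 to 0.98) and 9.72 against 5.23 CPM at E16.5 (0.89, 0.59 to 1.19). At least 1.5-fold higher were 8.77% and 14.5% of shared regions outside promoters, and 91.7% and 90.7% had a lower ratio. Scaled by promoter counts, the ratio of Id4 region 7 was 0.57 at E14.5, just under 1.5-fold, and 0.76 at E16.5. At E16.5 the region was also higher in the dermal fibrogenic gate, at 0.49 (0.17 to 0.81), and lower in the fibrogenic gate, at -0.45 (-0.89 to -0.05). Both values were under 1.5-fold. Over all nuclei the level of Id4 region 7 was lower at each later stage. The Id2 region 12.4 kb downstream was higher in the dermal fibrogenic gate at E14.5 (1.04, 0.55 to 1.51) but not at E16.5 (-0.20, -0.61 to 0.20). At E16.5 it was at least 1.5-fold lower in the tenogenic gate (-0.61, -1.08 to -0.17) and, just past the threshold, in the fibrogenic gate (-0.59, -1.05 to -0.16). In the top 5% the tenogenic ratio was -0.44 (-1.11 to 0.16), and scaled by promoter counts the fibrogenic ratio was -0.51. Neither call therefore held under both alternatives.

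**Figure D4:**
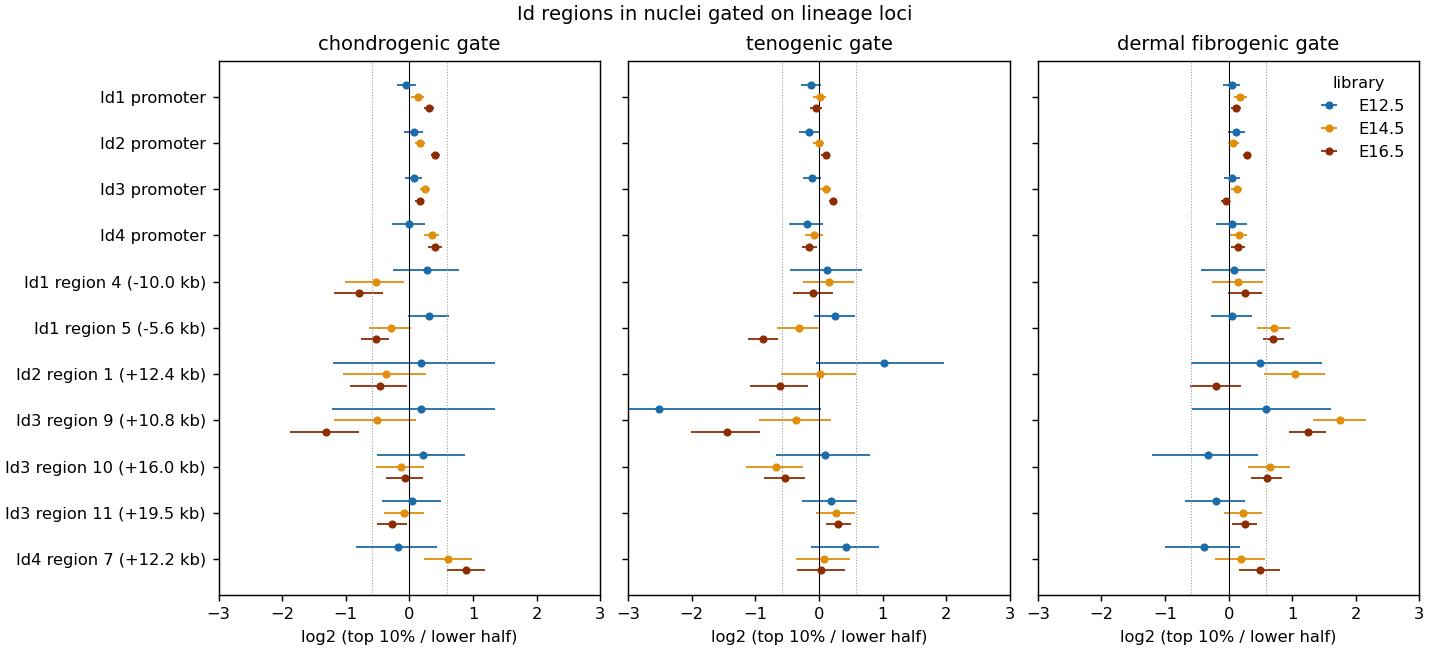
Log2 ratio (x axis) of CPM in the top 10% of nuclei by lineage score over the nuclei below the median score, for Id promoter regions and distal regions (y axis, with the distance of the nearest edge from the start site), in 3 gates. Points are libraries, bars are 95% intervals for counting error (1 bar runs past -3) and dotted lines mark 1.5-fold. Id3 region 9 lies to the right in the dermal fibrogenic gate and to the left in the others at E16.5. Id4 region 7 lies to the right in the chondrogenic gate at E14.5 and E16.5 but not at E12.5.

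The rest of the BMP pathway was read over windows of the same kind, for 31 genes, together with 3 genes of the partners that Id proteins bind. From E12.5 to E14.5, 0 of the 31 were at least 1.5-fold lower and 1 was higher, where 6.39% and 3.23% of all windows were. From E14.5 to E16.5, 1 was lower and 0 higher (3.14% and 5.34%), and over the whole span 2 were lower and 0 higher (6.87% and 5.07%), so the counts were near the background. The median log2 ratio of the 31 over the whole span was -0.16, with 24 of 31 below 0 (50.7% of all windows), whereas the median of the 4 Id windows was -0.49.

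By role, the ligands ranged over the whole span from -0.39 at Bmp7 to 0.11 at Bmp4. Bmp2 had the largest difference among them in the first step (0.48) and in the second (-0.50), so that it returned to -0.01. Among the receptors, the type I receptor gene Bmpr1b was lower by -0.65, with 207.8, 147.5 and 132.1 CPM, and the type II receptor gene Acvr2a was higher by 0.56, with 35.8, 64.2 and 52.9 CPM. Acvr2a was the gene past 1.5-fold in the first step (0.84). The transducers ranged from -0.31 at Smad9 to 0.39 at Smad5. Of the antagonists, Grem1, whose protein binds and blocks BMP ligands, had 54.6, 53.6 and 31.5 CPM. It was the gene past 1.5-fold lower in the second step (-0.77) and, with Bmpr1b, over the whole span (-0.80). Fstl1 was the highest of the antagonists at 0.21.

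Of the feedback and target genes of the pathway, 8 of 8 were below 0 over the whole span, with a median of -0.28, where 50.7% of all windows were below 0, and none passed 1.5-fold. Atoh8, a bHLH gene induced by BMP, was the lowest with 305.7, 216.6 and 209.3 CPM (-0.55), and its first step was -0.50. Hey1 was the highest at -0.13, after 0.33 in the first step and -0.46 in the second. The inhibitory SMAD genes Smad6 and Smad7 had -0.44 and -0.32. The partner genes, none of which passed 1.5-fold in any step, were at -0.08 (Tcf3), 0.07 (Tcf12) and 0.21 (Tcf4).

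**Figure D5:**
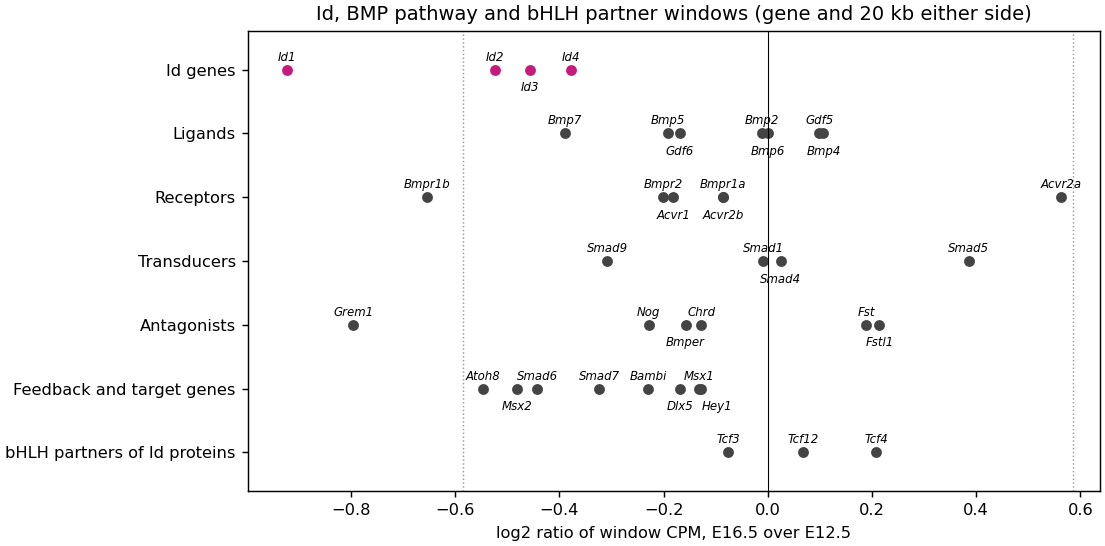
Log2 ratio of window CPM, E16.5 over E12.5 (x axis), for the 4 Id genes, 31 BMP pathway genes and 3 genes of bHLH partners grouped by role (y axis), 1 point per gene, with dotted lines at 1.5-fold. Id1 lies at -0.92, Grem1 at -0.80 and Bmpr1b at -0.65, and the 8 feedback and target genes all lie below 0.

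The promoter courses of Id1 and Id3 had few near matches. Likeness was measured as the distance between the log2 ratios of the 2 successive steps over 3 libraries, among genes whose mean promoter level was within 2-fold. For Id1, none of 1362 such genes lay within 0.1, and the nearest were Il17rd, Snai1 and Schip1 at distances of 0.28, 0.30 and 0.31. Il17rd and Schip1 were also the nearest to Id3, at 0.08 and 0.04, followed by Eva1b at 0.16, and 2 of 401 genes lay within 0.1. Il17rd had 124.7, 91.4 and 79.8 CPM and Schip1 125.6, 93.1 and 83.6 CPM. For Id2 the nearest were Stip1, Mxd4 and Hdgfl2, and 15 of 688 genes lay within 0.1. The course of Id4 was common, with 592 of 8108 genes within 0.1, of which Rab32, Tecpr1 and Flvcr1 were the nearest.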

How the data were processed

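Single-nucleus ATAC-seq had been run on 3 libraries, 1 per stage. The authors deposited, for each library, a peak list on mm10 and a matrix of raw counts of transposase cut sites per peak and nucleus made with Cell Ranger ATAC, version 1.0.1 for E12.5 and E14.5 and 1.2.0 for E16.5 per the file headers, whereas the submitters' processing notes name 1.1.0. Peaks had been called separately in each library. All 42365 deposited barcodes were used, more than the number of nuclei the study describes, and no doublet caller was run.

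Overlapping peaks (at least 1 bp) were merged, and regions with a peak in all 3 lists were compared. Counts of each library were summed over its own peaks in a region, not over every base of the merged region. CPM was computed per 1000000 counts in autosomal shared regions. Intervals are exact Poisson, binomial or conditional binomial 95% intervals on fragment equivalents (2 cut sites per fragment). Genes were placed with GENCODE on GRCm38. Ratios were checked on simulated data. The comparison used Python 3.11.15, numpy 2.4.6, scipy 1.17.1 and matplotlib 3.10.9.

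The text names the 4 Id genes and all their regions, the highest and lowest gene of each role in the BMP list and those past 1.5-fold, and the 3 nearest genes in likeness, with a few further genes given as examples. The members, the gene lists and these rules were chosen with earlier results of these data known. Scaling, counting nuclei, called width, peak matching, window size, low-count filter, depth of thinning and gate size were varied.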

Additional observations from a re-analysis of the deposited data

How the results depend on the processing

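No paired analysis was possible because each stage had 1 library, and for the same reason no replicate could be left out. Values are the median log2 ratios of the 4 Id genes, in the order E14.5 over E12.5, E16.5 over E14.5 and E16.5 over E12.5. The reported medians were -0.31, -0.32 and -0.55 for promoter regions and -0.29, -0.25 and -0.49 for windows. Scaling by total counts gave -0.13, -0.57 and -0.63 for promoter regions and -0.11, -0.51 and -0.57 for windows. The all-gene medians were then 0.44, -0.54 and -0.083 for promoter regions and 0.29, -0.39 and -0.086 for windows. Scaling by promoter counts gave -0.55 and -0.056 in the first and second step for promoter regions, and -0.53 and 0.012 for windows, the last with a changed sign. Scaling by the median gene gave -0.57 and -0.037, and -0.40 and -0.12. Counting nuclei changed the sign of the first step, to 0.18 for promoter regions and 0.093 for windows, and gave -0.63 and -0.47 in the second and -0.44 over the whole span of windows. That count takes a nucleus once per peak, so it rises where a region is split. Per kb of called width, promoter regions gave -0.037 and -0.52, and windows -0.020, -0.52 and -0.54. The all-gene medians per kb were 0.50 and -0.67 for promoter regions, and 0.50, -0.69 and -0.20 for windows. One-to-one matched peaks, which leave 3 promoter regions because that of Id3 had no match, gave -0.35 and -0.20, and windows gave -0.18 in the second step and -0.45 over the span. Windows of 2 kb gave -0.32 and -0.55 there, and each library's own peaks -0.16 in the second step. Weighting nuclei equally, an alternative chosen after seeing the data, gave -0.10, -0.48 and -0.50 for promoter regions and -0.077, -0.41 and -0.45 for windows. The cause of these shifts was not tested beyond the construction named. All E16.5 over E12.5 medians stayed below 0. The other 20 medians moved little. With 1 library per stage, depth sets only the counting error, and the variation between embryos is unknown.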
